A study of Mus musculus with 4 samples.

Results

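The genes described here make, process or degrade ribosomal RNA, and they were taken from the deposited counts by their symbol alone. They are the numbered Utp, Rrp, Nop and Exosc genes, the Polr1 genes with a single letter, and *Ncl*, *Npm1*, *Fbl* and *Dkc1*, without pseudogenes marked -ps. This gave 46 of 55401 genes, and 1 pseudogene was left out. RNA-seq of B220+ B cells sorted from the spleen of C57BL/6J mice was done in 4 libraries, 2 labelled NSD1B WT (Mb1-Cre+ NSD1+/+) and 2 labelled NSD1B KO (Mb1-Cre+ NSD1fl/fl). NSD1 writes methyl marks on lysine 36 of histone H3, and the comparison asks what its loss in B cells changes among transcripts. Both genotypes carry Mb1-Cre, which is expressed from the B lineage gene *Cd79a*, so that the floxed exons of *Nsd1* are removed in the B lineage. The study used young adult littermates of both sexes, and the labels give neither an age nor an animal for a library. The p-values therefore measure the spread between these libraries, which may be technical.

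A ribosome begins in the nucleolus, where RNA polymerase I transcribes a long precursor of ribosomal RNA. The small subunit processome folds and cuts the part that enters the small subunit, other factors assemble the large subunit, and small nucleolar ribonucleoproteins (snoRNPs) guide methylation and pseudouridylation of the RNA. The RNA exosome, a ring of subunits with a cap and a nuclease, trims precursor ends and degrades the spacers. B cells at rest make few ribosomes and enlarge their nucleoli when they are activated.

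Counts on genes were between 6769118 and 7566834 per library, and 44.3% to 44.6% of the counted reads were assigned to no gene. *Nsd1*, the targeted gene, had 497 and 480 counts in NSD1B WT and 284 and 280 in NSD1B KO, or 67.5 ± 2.75 and 40.5 ± 1.52 CPM (CPM being counts scaled to a common library total, with TMM factors that balance the libraries, as mean ± SD with n = 2). It fell by 0.74 on the log2 scale (standard error, SE, 0.11, adjusted p = 8.22e-08, quasi-likelihood test of edgeR, adjusted by Benjamini and Hochberg over all tested genes). The counts are over the whole gene, floxed exons and others alike, so they check the labels only in part. The 11 markers of B cells all had counts, with 7 lower and 2 higher in NSD1B KO. *Pax5*, which maintains B cell identity, had 279 and 342 counts in NSD1B WT and 30 and 31 in NSD1B KO, and *Cd79a* fell by 1.33 on the log2 scale. The summed level of the 11 was 18085.5 and 17928.3 CPM in NSD1B WT and 16489.1 and 15385.5 CPM in NSD1B KO. Markers of plasmacytoid dendritic cells, which also carry B220, were at 0 in every library for 4 of 5 genes.

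Of the 46 genes, 43 passed the filter on low counts and were tested, and 36 of them were called at an adjusted p below 0.05 with a fold change above 1.2. The share called was 83.7%, beside 78.2% of all 11657 tested genes. By direction, 26 members were higher and 10 lower in NSD1B KO, where 37.1% of all tested genes were higher and 41.1% were lower. Over the tested members the median of the log2 fold changes was 0.44, and over all tested genes it was -0.10. The libraries of the genotypes did not overlap in 38 of the 43, beside 88.1% of all tested genes. Since 5 members had counts in 1 genotype only and passed the filter through it, they had to differ, and among the 38 with counts in all 4 libraries 23 were higher and 8 lower. Of all tested genes, 18.9% were likewise at 0 throughout 1 genotype.

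**Figure D1:**
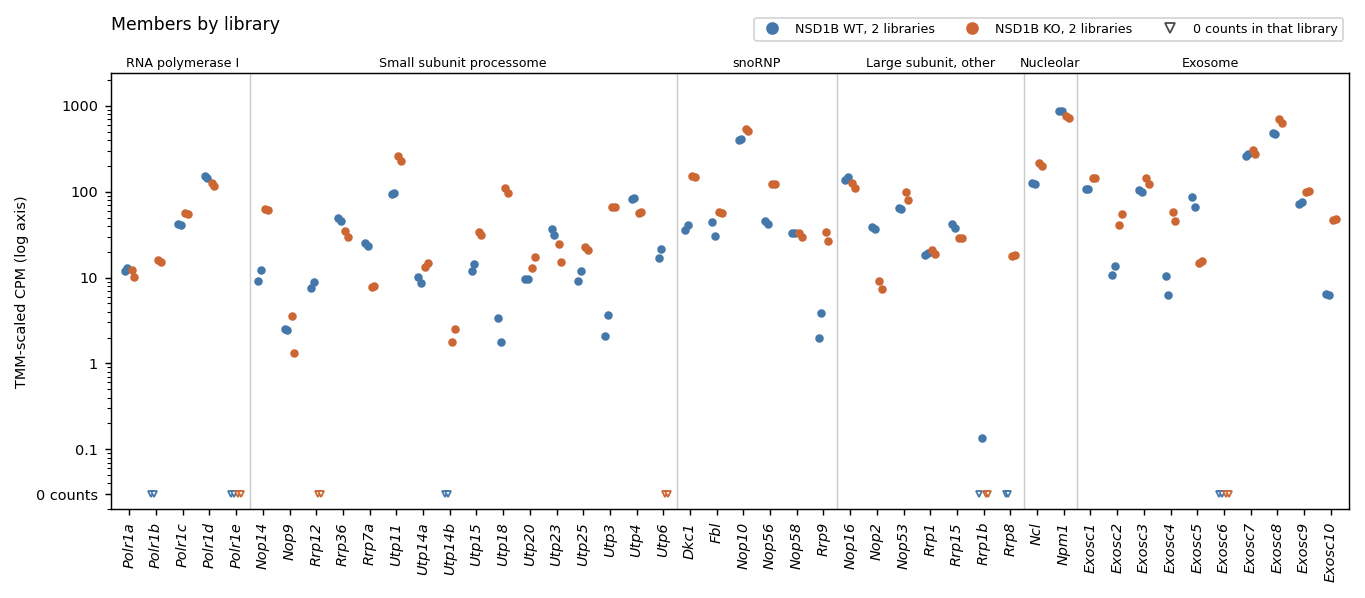
Each point is the TMM-scaled CPM of 1 library on a log axis for the 46 genes, grouped by role, with NSD1B WT in blue and NSD1B KO in orange, and an open triangle for a library with 0 counts. The 2 libraries of a genotype lie close together for most genes, and *Utp18*, *Utp3*, *Rrp9* and *Exosc10* show the widest gaps between the genotypes among genes with counts in all 4 libraries.

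For the 38 members with counts in every library, the difference between genotypes was larger in the median than that between libraries of a genotype. The absolute log2 ratio between the 2 NSD1B WT libraries had a median of 0.09 and reached 0.97, in *Rrp9*. Between the 2 NSD1B KO libraries it had a median of 0.14 and reached 1.43, in *Nop9*. The absolute log2 fold change between genotypes had a median of 0.60 and reached 5.33, in *Utp18*.

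Among called members whose mean log2 CPM reached 3 and whose genotypes did not overlap, the largest increases were those of *Rrp8*, *Utp18*, *Utp3*, *Rrp9* and *Exosc10*, and the largest decreases were those of *Utp6*, *Exosc5*, *Nop2*, *Rrp7a* and *Utp23*. *Polr1b*, whose mean log2 CPM lay just under 3, missed this limit although its bound is larger than the change of *Utp18*. In mm10 with GENCODE M21, *Utp18* spans 93859243 to 93885766 of chromosome 11 (minus strand), and *Utp3*, a gene of 1 exon, spans 88554462 to 88556090 of chromosome 5 (plus strand). *Exosc10* spans 148558429 to 148582401 of chromosome 4 (plus), *Rrp9* spans 106475963 to 106485424 of chromosome 9 (plus), and *Rrp8* spans 105731730 to 105737385 of chromosome 7 (minus). The genes that were lower lie on chromosome 11 from 79932321 to 79962390 (*Utp6*, minus strand), chromosome 7 from 25659164 to 25671368 (*Exosc5*, plus strand), chromosome 6 from 125131909 to 125144753 (*Nop2*, plus strand), chromosome 15 from 83113433 to 83122801 (*Rrp7a*, minus strand) and chromosome 15 from 51877429 to 51884614 (*Utp23*, plus strand). Together the 46 genes lie on 17 chromosomes.

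The promoters were examined for the E-box CACGTG, the letters that MYC bound to MAX reads, since *Myc* is a known driver of ribosome production and its own counts fell in NSD1B KO. RefSeq sequences of GRCm38.p6 were matched by symbol for 37 of the 46 genes, without *Utp6*, *Utp11*, *Utp23*, *Exosc4*, *Exosc9*, *Nop53*, *Npm1*, *Fbl* and *Rrp12*. In the 250 bases before the start, 5 of the 37 held the E-box on either strand, which are *Exosc5*, *Nop2*, *Rrp7a*, *Utp18* and *Utp14b*, beside 6.05% of 27025 promoters of the same length. By call, these were 3 of 7 lower and 2 of 21 higher members. An ETS site, CCGGAAGT, was found in 3 of the 37 (*Polr1c*, *Utp3* and *Utp4*) and in 2.93% of all on either strand. Neither motif is contained in the other, and a match describes the letters only. The 4 promoters that hold an E-box and belong to the genes of largest change are printed with the E-box in capitals. They are read 5′ to 3′ towards the start of transcription, at chr7:25658903-25659152 (plus), chr6:125131633-125131882 (plus), chr15:83122802-83123051 (minus) and chr11:93885767-93886016 (minus).
Exosc5: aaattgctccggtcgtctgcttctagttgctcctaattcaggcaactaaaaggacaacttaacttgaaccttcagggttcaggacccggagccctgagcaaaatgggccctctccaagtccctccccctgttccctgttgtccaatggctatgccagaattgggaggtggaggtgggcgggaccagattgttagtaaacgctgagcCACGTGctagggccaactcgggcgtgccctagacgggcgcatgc
Nop2: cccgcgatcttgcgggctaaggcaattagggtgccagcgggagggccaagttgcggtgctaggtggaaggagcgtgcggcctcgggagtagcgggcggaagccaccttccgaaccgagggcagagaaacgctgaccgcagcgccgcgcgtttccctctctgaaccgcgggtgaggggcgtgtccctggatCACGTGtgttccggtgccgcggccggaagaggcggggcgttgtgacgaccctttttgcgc
Rrp7a: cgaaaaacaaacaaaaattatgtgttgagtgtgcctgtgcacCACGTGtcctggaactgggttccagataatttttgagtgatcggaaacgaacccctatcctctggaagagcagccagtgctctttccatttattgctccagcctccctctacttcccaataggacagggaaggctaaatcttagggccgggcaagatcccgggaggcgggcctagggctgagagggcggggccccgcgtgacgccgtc
Utp18: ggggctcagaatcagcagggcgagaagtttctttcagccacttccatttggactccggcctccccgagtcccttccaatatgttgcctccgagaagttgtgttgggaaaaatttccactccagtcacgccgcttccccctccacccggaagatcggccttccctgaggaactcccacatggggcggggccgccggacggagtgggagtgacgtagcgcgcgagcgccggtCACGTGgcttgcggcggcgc

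The E-box began 44 bases before the start in *Exosc5*, 60 in *Nop2* and 208 in *Rrp7a*, all of which were lower in NSD1B KO. In *Utp18*, which was higher, it began 20 bases before the start. The motif thus stood before genes that moved in opposite directions.

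RNA polymerase I was represented by its catalytic core, by subunits that it shares and by *Polr1e*. *Polr1b*, the second largest subunit, was not counted in NSD1B WT and had 116 and 102 counts in NSD1B KO. With 3 counts over the 2 libraries taken as the limit of a count of 0, it was at least 75.4-fold higher. Here and below, such a bound divides the mean CPM of the counted genotype by that limit. The error of this mean and any spread beyond counting error are left out, so the bounds are approximate. *Polr1a*, the largest subunit, had 86 and 95 counts in NSD1B WT and 89 and 68 in NSD1B KO, so the genotypes overlapped. Its log2 fold change was -0.15 (SE 0.23, adjusted p = 0.537, edgeR). *Polr1c*, shared with RNA polymerase III, had 304 and 298 counts in NSD1B WT and 410 and 375 in NSD1B KO, and rose by 0.44 on the log2 scale (SE 0.12, adjusted p = 6.69e-04, edgeR). *Polr1d*, the other shared subunit, had 1088 and 1064 counts in NSD1B WT and 924 and 781 in NSD1B KO. It fell by 0.28 on the log2 scale (SE 0.09, adjusted p = 0.00339, edgeR), but was not called without NSD1B WT replicate 1 (-0.22) or NSD1B KO replicate 2 (-0.21). With the trend of length and GC content removed, its sign was the opposite (0.13). *Polr1e* had 0 counts in all 4 libraries, which allows up to 0.207 CPM in NSD1B WT and 0.215 in NSD1B KO; this limit covers counting error only.

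In the small subunit processome 9 of 16 members were higher and 6 lower, or 56.2% and 37.5%. For all tested genes these shares were 37.1% and 41.1%. *Utp18* was counted 24 and 13 times in NSD1B WT and 805 and 644 times in NSD1B KO, which is 2.57 ± 1.12 CPM against 104 ± 11.4 CPM (mean ± SD, n = 2). The log2 fold change of 5.33 (SE 0.18, adjusted p = 1.84e-29, edgeR) was the largest among members with counts in all libraries. *Utp3*, which is also called SAS10, had 15 and 27 counts in NSD1B WT against 474 and 442 in NSD1B KO, a log2 fold change of 4.49 (SE 0.19, adjusted p = 2.50e-25, edgeR). Both genes thus had under 30 counts in each NSD1B WT library and at least 442 in each NSD1B KO library. *Nop14*, which holds parts of the processome together, had 66 and 89 counts in NSD1B WT and 453 and 414 in NSD1B KO and rose by 2.54 on the log2 scale (SE 0.15, adjusted p = 5.30e-20, edgeR).

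Smaller increases were found in other processome members. *Utp11* had 674 and 716 counts in NSD1B WT and 1886 and 1536 in NSD1B KO, with a log2 fold change of 1.35. *Utp15*, of the subcomplex that binds the nascent RNA first, had 86 and 106 counts against 246 and 210, with a log2 fold change of 1.30. *Utp25* had 65 and 88 counts against 164 and 141, with a log2 fold change of 1.05. For these genes the adjusted p was 1.09e-18, 2.38e-09 and 6.92e-06 in that order (edgeR). *Utp20* (69 and 70 counts in NSD1B WT, 93 and 116 in NSD1B KO) and *Utp14a* (72 and 63 against 95 and 100) had log2 fold changes of 0.65 and 0.58, with adjusted p = 0.00868 and 0.0181 (edgeR). Neither was called by the Wald test of DESeq2, where the values were 0.65 for *Utp20* and 0.59 for *Utp14a*. Both were also lost without NSD1B KO replicate 2, with values of 0.43 for *Utp20* and 0.50 for *Utp14a*. *Utp14a* was also lost without NSD1B WT replicate 2 (0.50), and *Utp20* by limma-voom (0.62). *Utp14b*, a close copy of *Utp14a* that shares 244 exon bases with *Acsl3* on its strand, was counted 13 and 17 times in NSD1B KO and 0 times in NSD1B WT, at least 10.4-fold higher. Reads of the 2 copies may be split, so both are uncertain.

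In the other direction, *Utp6* had 120 and 158 counts in NSD1B WT and 0 in both NSD1B KO libraries, at least 89.1-fold lower. *Rrp12*, a factor of subunit export, had 54 and 65 counts in NSD1B WT and 0 in NSD1B KO, at least 38.2-fold lower. *Rrp7a* had 182 and 171 counts in NSD1B WT and 56 and 54 in NSD1B KO, and fell by 1.63 on the log2 scale (SE 0.20, adjusted p = 7.80e-10, edgeR). *Utp23* had 261 and 232 counts against 176 and 103, and the gap between its 2 NSD1B KO libraries was wide. It fell by 0.77 on the log2 scale (SE 0.17, adjusted p = 4.92e-05, edgeR), with values of -1.16 without NSD1B KO replicate 1 and -0.47 without NSD1B KO replicate 2. *Utp4*, known as cirhin, had 581 and 622 counts in NSD1B WT and 409 and 387 in NSD1B KO, with a log2 fold change of -0.54 (adjusted p = 5.81e-06, edgeR). *Rrp36* had 355 and 337 counts against 250 and 201, with a log2 fold change of -0.57 (adjusted p = 1.08e-04, edgeR), which was -0.13 and not called with the trend of length and GC content removed. *Nop9* had 18 and 18 counts in NSD1B WT and 26 and 9 in NSD1B KO, and its genotypes overlapped.

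**Figure D2:**
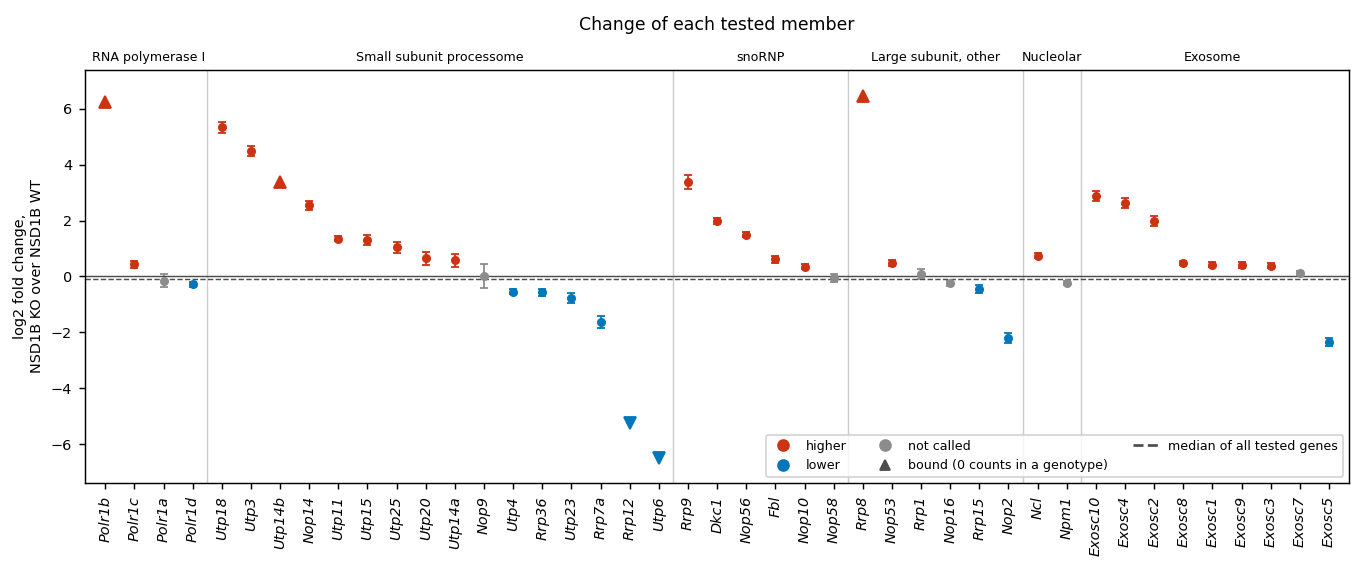
Points give the log2 fold change of NSD1B KO over NSD1B WT with the standard error for tested members, in red where called higher, blue where called lower and grey where not called. Triangles give the bound for the 5 members with 0 counts in a genotype, and the dashed line marks the median of all tested genes at -0.10. Higher and lower members stand side by side in the processome, and 0 of the 6 snoRNP proteins is in blue.

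Of the 6 snoRNP proteins among the members, 5 were higher and 0 were lower, beside 37.1% and 41.1% of all tested genes. Fibrillarin, the methyltransferase of box C/D snoRNPs encoded by *Fbl*, had 315 and 226 counts in NSD1B WT and 413 and 384 in NSD1B KO, and rose by 0.61 on the log2 scale (SE 0.13, adjusted p = 3.02e-05, edgeR). The value was 0.92 without NSD1B WT replicate 1 and 0.40 without NSD1B WT replicate 2. *Nop56* and *Nop58* form a pair in the same particle. *Nop56* had 327 and 305 counts in NSD1B WT and 886 and 831 in NSD1B KO, a log2 fold change of 1.50 (SE 0.10, adjusted p = 3.67e-18, edgeR). *Nop58* had 235 and 239 counts against 238 and 199, a log2 fold change of -0.06 (SE 0.14, adjusted p = 0.679, edgeR), and its genotypes overlapped. *Rrp9*, the protein that is particular to U3, had 14 and 28 counts in NSD1B WT and 242 and 180 in NSD1B KO, a log2 fold change of 3.37 (SE 0.25, adjusted p = 7.40e-17, edgeR).

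In the box H/ACA particles, *Dkc1* encodes dyskerin, the pseudouridine synthase, which also belongs to telomerase. It had 257 and 301 counts in NSD1B WT and 1103 and 1013 in NSD1B KO, or 38.5 ± 3.68 and 152 ± 1.90 CPM (mean ± SD, n = 2), and rose by 1.98 on the log2 scale (SE 0.10, adjusted p = 1.45e-22, edgeR). Its partner *Nop10* was the snoRNP gene of highest level, with 2888 and 3012 counts in NSD1B WT and 3858 and 3386 in NSD1B KO, and rose by 0.35 on the log2 scale (SE 0.08, adjusted p = 6.95e-05, edgeR). Their 2 partners in the particle, which are not members, did not rise. *Nhp2* fell by 0.42 on the log2 scale (adjusted p = 8.53e-06, edgeR), and *Gar1*, with 10 to 21 counts per library, was not called (log2 fold change 0.14, adjusted p = 0.775, edgeR).

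Small nucleolar RNAs are often encoded in introns of the genes that serve them. In GENCODE M21, 14 such RNA genes lie inside *Ncl*, *Nop56*, *Nop58*, *Nop53* and *Dkc1* on the same strand. Over the 4 libraries they had 0 counts in all, so host and guest could not be compared.

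Among factors of the large subunit and of other steps, 2 of 6 tested members were higher and 2 lower. Each is a share of 33.3%, close to the 37.1% and 41.1% of all tested genes. *Rrp8*, also called nucleomethylin, was not counted in NSD1B WT and had 129 and 124 counts in NSD1B KO, at least 87.6-fold higher. It shares 355 exon bases with *Ilk* on the opposite strand. *Nop2*, an RNA methyltransferase also known as p120, went the other way, with 275 and 270 counts in NSD1B WT and 66 and 49 in NSD1B KO. It fell by 2.19 on the log2 scale (SE 0.18, adjusted p = 3.34e-15, edgeR). *Nop53* had 463 and 461 counts in NSD1B WT and 718 and 533 in NSD1B KO (log2 fold change 0.49, adjusted p = 4.99e-05, edgeR), and its value was 0.31 without NSD1B KO replicate 1.

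The other factors of this kind showed small differences. *Rrp15* had 303 and 277 counts in NSD1B WT and 211 and 197 in NSD1B KO, a log2 fold change of -0.45 (adjusted p = 0.00251, edgeR) that was not called without NSD1B WT replicate 1 (-0.34) or with the trend of length and GC content removed (-0.22). *Nop16*, whose 986 and 1079 counts in NSD1B WT lay above the 923 and 749 in NSD1B KO, was under the fold limit at a log2 fold change of -0.25. It was called lower by library size alone (-0.33), upper quartile scaling (-0.29) and the filter of 1 CPM (-0.29). With a library left out it ranged from -0.36 to -0.15, and with the trend of length and GC content removed it was 0.11. *Rrp1* had 130 and 141 counts against 149 and 127, which overlapped, and a log2 fold change of 0.08. It was called higher with the trend of length and GC content removed (0.62, adjusted p = 0.00148, edgeR). *Rrp1b*, its paralog, had 1 count in 1 NSD1B WT library and 0 in the others.

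Of the genes of nucleolin and nucleophosmin, abundant proteins of the nucleolus that bind RNA and histones, only that of nucleolin was called. *Ncl* had 892 and 904 counts in NSD1B WT and 1570 and 1352 in NSD1B KO, and rose by 0.75 on the log2 scale (SE 0.09, adjusted p = 4.91e-11, edgeR). *Npm1* was the member with the most counts, 6231 and 6409 in NSD1B WT and 5548 and 4866 in NSD1B KO. Its log2 fold change was -0.23 (SE 0.08, adjusted p = 0.00599, edgeR), just under the fold limit, and it passed that limit when libraries were scaled by size alone (-0.31). *Npm1* has processed pseudogenes, and reads that were not unique, 11.2% to 13.2% of the counted reads, are not part of the counts.

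The exosome moved mostly upwards, with 7 of 9 tested subunits higher and 1 lower, beside 37.1% and 41.1% of all tested genes. In the cap, which feeds RNA into the channel, *Exosc2* had 77 and 101 counts in NSD1B WT and 299 and 375 in NSD1B KO, a log2 fold change of 1.98 (SE 0.17, adjusted p = 4.91e-15, edgeR). *Exosc1* had 770 and 789 counts against 1043 and 964 and *Exosc3* had 746 and 732 against 1045 and 827, with log2 fold changes of 0.42 and 0.39 (adjusted p = 3.38e-05 and 1.80e-04, edgeR). *Exosc3* was not called without NSD1B KO replicate 1 (0.26). All 3 cap subunits were thus higher, and *Exosc2* rose most.

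The ring was less even. *Exosc4* had 74 and 46 counts in NSD1B WT and 417 and 308 in NSD1B KO, and rose by 2.64 on the log2 scale (SE 0.18, adjusted p = 3.78e-18, edgeR). *Exosc5* went against the others, with 621 and 485 counts in NSD1B WT and 106 and 104 in NSD1B KO, and fell by 2.34 on the log2 scale (SE 0.14, adjusted p = 4.37e-20, edgeR). These 2 genes share 385 exon bases with *Oplah* and 355 with *Tmem91*, each on the opposite strand. *Exosc8* had 3430 and 3486 counts against 5083 and 4304 (log2 fold change 0.49, adjusted p = 1.59e-07, edgeR). *Exosc9* had 521 and 561 against 709 and 682 (0.42, adjusted p = 1.21e-04, edgeR), and shares 510 exon bases with *Ccna2* on the opposite strand. *Exosc7*, with 1865 and 2025 counts in NSD1B WT and 2208 and 1841 in NSD1B KO, was not called (log2 fold change 0.11, adjusted p = 0.211, edgeR). *Exosc6* had 0 counts in all 4 libraries. Its only exon, 1326 nt long, lies wholly within exons of *Aars* on the same strand, so a read there lies on both genes.

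*Exosc10*, the nuclease that the nuclear exosome carries, had 46 and 46 counts in NSD1B WT and 337 and 320 in NSD1B KO, or 6.36 ± 0.102 and 47.1 ± 0.520 CPM (mean ± SD, n = 2). It rose by 2.89 on the log2 scale (SE 0.18, adjusted p = 1.05e-19, edgeR). The other nuclease of the exosome, *Dis3*, had 120 and 124 counts in NSD1B WT and 127 and 59 in NSD1B KO, which overlapped, and a log2 fold change of -0.34 (adjusted p = 0.150, edgeR). The helicase *Mtrex*, which unwinds RNA for the exosome, rose by 0.35 on the log2 scale (adjusted p = 0.0105, edgeR).

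Levels of different genes were compared as CPM per kilobase of exon. Within the exosome, the level per kilobase in NSD1B WT was highest for *Exosc8* (110), followed by *Exosc3* (77.2), *Exosc7* (44.7), *Exosc1* (26.6), *Exosc9* (15.9), *Exosc5* (12.2), *Exosc4* (4.27), *Exosc2* (4.25) and *Exosc10* (1.77). *Exosc4* and *Exosc2* did not differ beyond their spread. In NSD1B KO *Exosc8* was again highest (155) and *Exosc5* was lowest (2.41), below *Exosc10* (13.1). The ratio of the highest to the lowest subunit with counts was 62.3 in NSD1B WT and 64.5 in NSD1B KO. In RNA polymerase I, *Polr1d* was at 48.9 per kilobase and *Polr1a* at 1.05 in NSD1B WT, and 40.1 and 0.946 in NSD1B KO. Among the 3 members of box C/D snoRNPs compared here, the order was *Nop56* (10.7), *Fbl* (8.90) and *Nop58* (3.04) in NSD1B WT. In NSD1B KO they were at 30.1, 13.6 and 2.91. *Nop56* stood 10.3 times above *Nop58* in NSD1B KO, compared with 3.50 times in NSD1B WT. *Snu13*, a further snoRNP protein outside the members, was above them, at 77.4 per kilobase in NSD1B WT and 76.5 in NSD1B KO. It was not called (log2 fold change -0.02, adjusted p = 0.868, edgeR). Exon length here is that of all exons of a gene joined, which lowers the level of genes with long or rare exons.

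**Figure D3:**
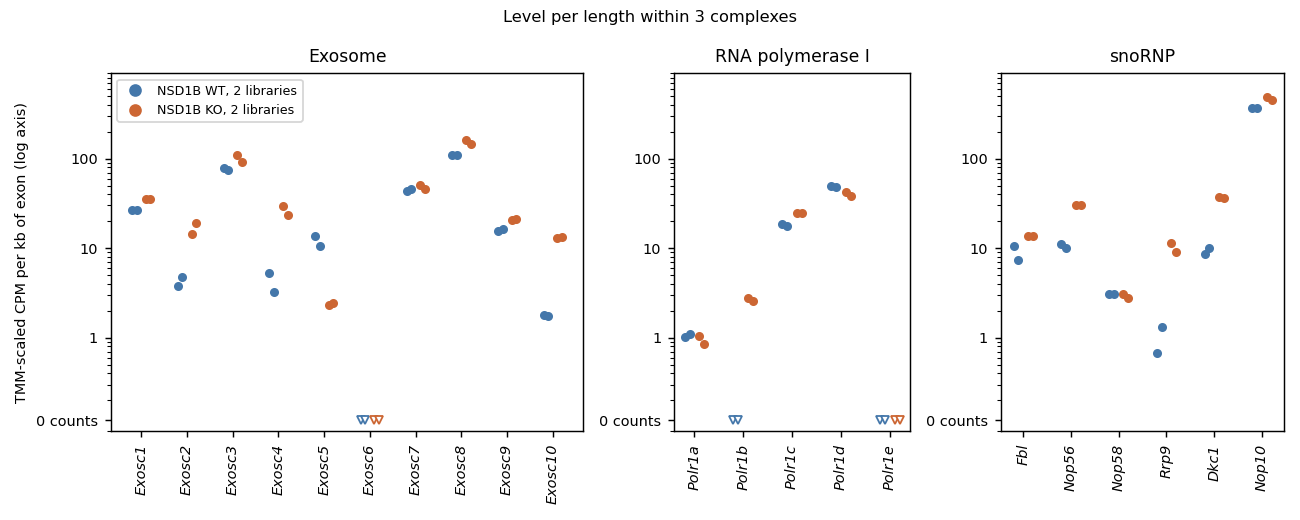
Each point is the TMM-scaled CPM per kilobase of exon of 1 library, on a log axis, for the subunits of the exosome, of RNA polymerase I and of snoRNPs, with NSD1B WT in blue and NSD1B KO in orange. *Exosc10* is the lowest counted subunit of the exosome in NSD1B WT and *Exosc5* in NSD1B KO, and *Polr1b* has points only in NSD1B KO.

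Among all tested genes, the median size of a change was larger at lower level. When the tested genes were split into 4 equal groups by mean log2 CPM, the group of highest level held 18 members with a median absolute log2 fold change of 0.46, where all its genes had 0.53. In the next group 16 members had 1.80 and all genes 0.99. In the remaining groups, in falling order of level, 6 members had 3.44 and 3 members had 3.38, where all genes had 1.81 and 3.60, with genes at 0 in a genotype set to their bound. These values of members rest on *Polr1b*, *Utp6*, *Rrp8*, *Rrp12* and *Utp14b*, which were at 0 in a genotype and had to differ. The other members there, *Utp20*, *Utp14a*, *Polr1a* and *Nop9*, had log2 fold changes of 0.65, 0.58, -0.15 and 0.01. A trend with level among members is therefore not shown. From the highest to the lowest group, 74.0%, 80.1%, 79.6% and 79.2% of all tested genes were called, and 15, 14, 5 and 2 members.

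**Figure D4:**
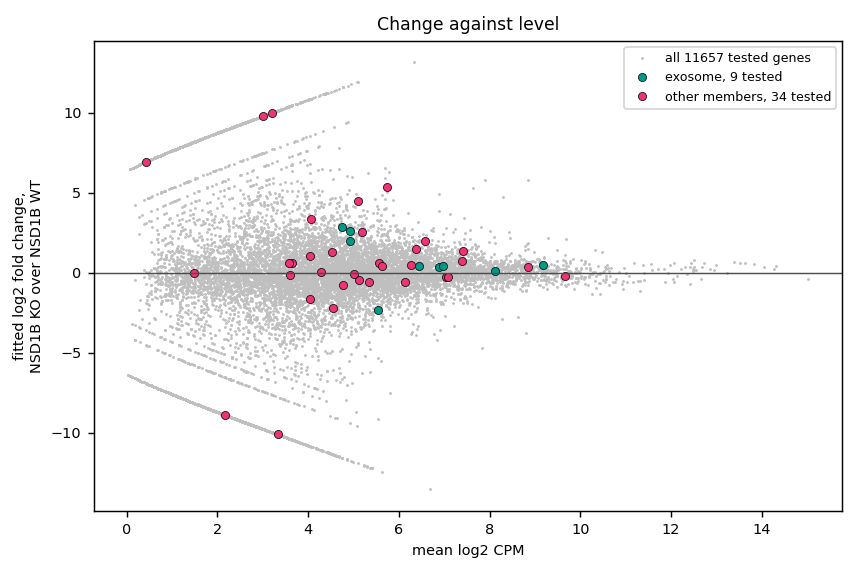
The mean log2 CPM of each tested gene is set against its fitted log2 fold change, with all tested genes in grey, the 9 exosome subunits in green and the 34 other members in pink. The lines of points that fan out at the left are genes with 0 or few counts in a genotype, whose fitted values depend on the prior count, and 5 members lie on the outermost of them.

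Genes of the same pathway that the symbols did not take were examined in lists of their functions. Over 154 tested genes of these lists, 64 were higher (41.6%) and 66 lower (42.9%), close to the 37.1% and 41.1% of all tested genes. The median of their log2 fold changes was -0.03. These lists were not tested against the members. Among 11 further factors and subunits of RNA polymerase I, 6 were higher and 5 lower. *Ubtf*, which binds the ribosomal DNA and opens it, had 359 and 328 counts in NSD1B WT and 76 and 65 in NSD1B KO and fell by 2.23 on the log2 scale (adjusted p = 5.36e-17, edgeR). *Twistnb*, a subunit of the stalk, rose by 2.08, and *Cd3eap*, another subunit of the enzyme, fell by 2.20 (adjusted p = 4.92e-20 and 1.14e-14, edgeR). Of 5 subunits shared with other RNA polymerases, 1 was higher and 2 lower.

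Other small subunit factors were 20 higher and 19 lower of 42 (47.6% and 45.2%), where all tested genes had 37.1% and 41.1%. *Nob1*, the nuclease that makes the 3′ end of the small subunit RNA, had 324 and 282 counts in NSD1B WT and 0 in NSD1B KO, at least 195-fold lower. *Riok1*, a kinase of late maturation, had 58 and 36 counts in NSD1B WT and 455 and 373 in NSD1B KO, a log2 fold change of 3.19 (adjusted p = 2.52e-21, edgeR). Other large subunit factors were 17 higher and 25 lower of 52 (32.7% and 48.1%). *Ftsj3*, a methyltransferase, rose from 7 and 16 counts to 224 and 183 (log2 fold change 4.18, adjusted p = 1.93e-18, edgeR), whereas *Rsl24d1*, also called lower, went from 186 and 177 counts to 3 and 1. Assembly factors and other snoRNP proteins were 5 higher and 7 lower of 14, and the proteins of RNase MRP and RNase P 5 higher and 1 lower of 9. Exosome cofactors and related nucleases were 10 higher and 6 lower of 19, among them *Xrn2*, the nuclear 5′ to 3′ nuclease (log2 fold change 1.39), and *Xrn1*, its cytoplasmic counterpart (-1.35), with adjusted p = 2.67e-16 and 7.23e-08 (edgeR).

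**Figure D5:**
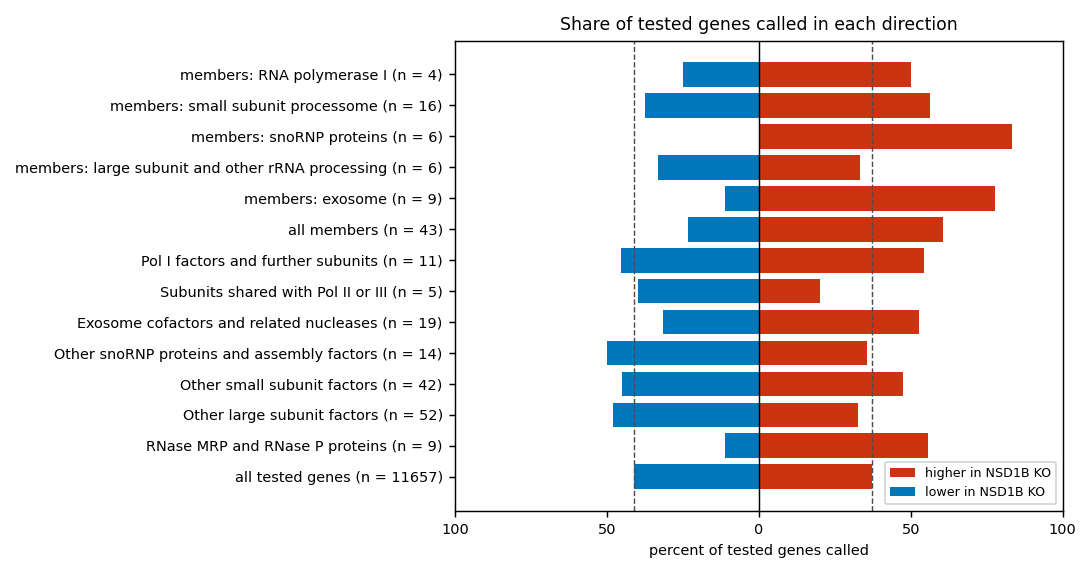
Bars give the percentage of tested genes called higher (red, to the right) or lower (blue, to the left) in NSD1B KO, for the members by role, for the lists of the pathway outside the members and for all tested genes, whose shares are drawn as dashed lines at 37.1% and 41.1%. The members as a whole reach 60.5% higher and 23.3% lower.

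*Myc* had 2027 and 1856 counts in NSD1B WT and 555 and 455 in NSD1B KO, and fell by 1.89 on the log2 scale (SE 0.09, adjusted p = 1.75e-23, edgeR). Its partner *Max* had a log2 fold change of 0.13 (adjusted p = 0.559, edgeR). Markers of cycling cells were lower as well, in 8 of 9 tested genes, and their summed level was 153 and 167 CPM in NSD1B WT and 57.0 and 46.3 CPM in NSD1B KO. *Mki67*, *Top2a*, *Ccnb1*, *Ccnb2*, *Cdk1* and *Aurkb* were at 0 in both NSD1B KO libraries. They passed the filter through NSD1B WT and could only come out lower. Of the other tested markers, *Tyms* (log2 fold change -1.61) and *Birc5* (-1.19) were lower and *Ccna2* (0.05) was not called. Unlike the summed level of these markers, that of the 46 members rose, from 3576.5 and 3573.9 CPM to 4717.4 and 4367.5 CPM.

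The study's methods state that sorted cells were checked and used only at high purity. Transcripts that mark other cell types were nevertheless counted, and differed between genotypes. All 5 tested erythroid genes were higher, from a summed 39.6 and 35.5 CPM in NSD1B WT to 1942.0 and 1687.9 CPM in NSD1B KO. Myeloid markers were 5 higher and 2 lower of 7 tested, from 4599.1 and 4701.9 to 6139.3 and 5791.4 CPM, with *Mpo* and *Elane* at 0. *Lyz2* alone made up 4441.0 and 4531.7 CPM of this sum in NSD1B WT and 5884.3 and 5535.2 CPM in NSD1B KO. T cell markers (3 higher, 2 lower of 5 tested) summed to 53.7 and 51.2 CPM in NSD1B WT and to at least 70.7 CPM in both NSD1B KO libraries, with *Cd4* and *Cd8a* at 0. NK cell markers (2 higher, 1 lower of 3 tested) summed to 56.5 and 59.8 CPM against 86.3 and 83.1, with *Ncr1* and *Eomes* at 0. Most of this sum was *Nkg7*, at 52.1 and 56.7 CPM against 79.8 and 79.6. *Alas2*, *S100a8*, *S100a9* and *Klrb1c* were at 0 throughout 1 genotype, so these markers had to differ. Plasma cell markers (*Prdm1* and *Irf4* higher and *Jchain* lower of 3 tested) went from 188 and 180 to 163 and 155 CPM, with *Sdc1* and *Tnfrsf17* at 0, and of 3 platelet markers *Pf4* alone had counts, at 154 and 167 CPM against 223 and 231. Whether these cells had a part in the changes of the members was not tested. In RNA from sorted cells in bulk, fewer cells of a type and less RNA per cell cannot be told apart.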

How the data were processed

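RNA of sorted splenic B220+ B cells was sequenced on an Illumina HiSeq, and the authors mapped paired-end reads to mm10 with Bowtie2. What the authors deposited are raw counts of reads on each gene, as whole numbers and unscaled. The submitters' notes also name Cufflinks, while the program that counted reads, its strand setting and its annotation were not given in the sources used here. Without a stated strand setting, reads of 17 members that share exon bases with a gene on the opposite strand cannot be told from those of that gene. In 11 of them 100 or more such bases are shared. These are *Nop9* (1136), *Rrp7a* (678), *Exosc9* (510), *Utp14a* (473), *Exosc4* (385), *Exosc2* (358), *Exosc5* (355), *Rrp8* (355), *Utp23* (345), *Polr1a* (185) and *Nop14* (144).

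Libraries were grouped by their titles and genotype labels. Identifiers were matched to GENCODE M21 (55141 of 55401) for positions, exon lengths and GC content. Lines that name no gene stayed out of library sizes and tests (44.3% to 44.6% of counted reads assigned to no gene, 2.21% to 2.41% ambiguous and 11.2% to 13.2% not unique). CPM values are from edgeR's cpm function with the TMM-scaled library sizes. Genes passed edgeR's filterByExpr (minimum count 10, minimum total 15), and counts were scaled by TMM (factors 1.029, 1.026, 0.952 and 0.995). NSD1B KO was compared with NSD1B WT by the quasi-likelihood test of edgeR 4.0.16 in R 4.3.3, with Benjamini-Hochberg adjustment over all tested genes. Genes were called at a fold change over 1.2 in either direction with adjusted p under 0.05, after the study's own cutoffs, with p taken as adjusted. With 2 libraries per genotype no exact permutation test can reach 0.05, and none was made. The mean chi-square between libraries of a genotype was 2.992 and 4.562, where counting error alone gives about 1, so no 2 libraries agreed within sampling noise; this does not show whether they come from different animals.

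The members, the pathway lists and the marker lists were chosen with earlier results of these data known. Counts in each library are given for the polymerase and exosome subunits, *Ncl*, *Npm1*, *Fbl* and *Dkc1*, members at 0 in a genotype, the 5 largest increases and 5 largest decreases, and members whose call an alternative ends, and for most others for completeness. Genes outside the members were taken from the 3 largest called changes in each direction of their list where mean log2 CPM reached 3, and not all of these are named. The same limit on level holds for the 5 largest increases and decreases of members. *Dis3*, *Mtrex*, *Nhp2*, *Gar1*, *Snu13* and *Max* were chosen for naming with their values in view.

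Other settings tried were library scaling by DESeq2's factors, by upper quartile or by total counts, limma-voom (limma 3.58.1), DESeq2 1.42.0 (Wald), a filter of 1 count in any library or of 1 CPM in all 4 libraries, each library left out, the replicate number as a block, a loess correction (span 0.5) for exon length and GC, that correction with the block, and 3 other thresholds. The fit was tested on simulated data.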

Additional observations from a re-analysis of the deposited data

How the results depend on the processing

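The counts of 26 members higher and 10 lower stayed between 23 and 27 and between 7 and 12 under every other scaling, filter, test and left-out library, and under an adjusted p of 0.05 with no fold limit or glmTreat. At stricter thresholds (adjusted p of 1e-05, log2 fold change of 0.5 in either direction) they were 16 and 6, since fewer genes can pass them. The median log2 fold change of the members, 0.44, was 0.36 by library size alone, 0.42 to 0.50 with a library left out, and 0.70 after correction for exon length and GC (0.69 with the replicate block as well), an alternative that moved the median of all genes by 0.28. The difference of the members' median from that of all genes was 0.54, and 0.43 to 0.64 over the alternatives. Of 596 values for single members, 558 kept their direction and call, 14 lost the call, 11 gained one and 13 changed sign, and 30 of the 36 called members kept their call wherever they could be tested. Signs changed with the length and GC trend removed, alone and with the block, in *Polr1a* (0.07 and 0.07), *Polr1d* (0.13 and 0.13) and *Nop16* (0.11 and 0.10). *Nop9*, at 0.01, changed sign by library size (-0.08), upper quartile (-0.04), limma-voom (-0.18), the filter of 1 CPM (-0.04) and the replicate block (-0.08), and ranged from -0.89 to 0.54 with a library left out. *Nop58* ranged from -0.15 to 0.02 in that setting. Correction for length and GC gave higher values for *Polr1c* (0.89), *Fbl* (1.03), *Nop10* (0.61), *Nop53* (0.88), *Exosc3* (0.70) and *Rrp1* (0.62). The cause of these changes was not tested. The same-numbered libraries of the genotypes are not stated to be paired, and the correlation of their deviations was 0.0709. With the replicate block 26 members were higher and 10 lower. With a library left out, the lone library of its genotype is assumed to vary like the other genotype. Depth limits genes such as *Nop9*, *Utp14b* and *Gar1*, which had fewer than 30 counts per library.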
